A study of Mus musculus with 11 samples.

Results

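The genes described here are the ferritin heavy chain gene Fth1, its processed copy Gm6977 and the ferritin light chain gene Ftl1. With them are 6 genes of iron entry, export, sensing and release from haem: Tfrc, Slc40a1, Slc11a2, Ireb2, Aco1 and Hmox1. All of these were taken by symbol after the Ensembl identifiers of the count tables had been matched to GENCODE symbols on GRCm38. All 9 genes were found among the 38293 genes of the tables, and all 9 were among the 20589 genes tested, each of which summed to 10 or more counts. Gm6977 was selected on its measured diet difference in these same libraries, so its diet values are given as a description and without a test. The other 8 genes were listed by function, with earlier results of these data known.

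The libraries were made from whole hippocampi of wildtype F1 mice (129S6/SvEv dam, C57BL/6J sire) aged 14 weeks, with 1 library for each mouse. CD mice (n = 6, 3 males and 3 females) had dams kept before mating on a control diet with 2.3 mg of folic acid per kg, and FD mice (n = 5, 2 males and 3 females) had dams kept before mating on a diet with 40 mg per kg. From mating onwards all dams, and later all offspring, received the control diet, so the offspring themselves were never fed the high-folate diet. Sons carry the X chromosome of the 129S6/SvEv dam, daughters carry an X chromosome from each parent, and reads of both were aligned to the C57BL/6J reference.

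Ferritin is a shell of heavy and light chains that stores iron in the cytosol. The heavy chain oxidises incoming iron and the light chain helps to lay it down as a mineral core. Cells take up transferrin-bound iron through the transferrin receptor, encoded by Tfrc, move it out of endosomes with the divalent metal transporter, encoded by Slc11a2, and export it through ferroportin, encoded by Slc40a1. When iron is scarce, the iron regulatory proteins encoded by Aco1 and Ireb2 bind hairpins called iron-responsive elements, which blocks translation of ferritin and ferroportin mRNAs and stabilises the Tfrc mRNA. Much of this control acts on translation, which RNA counts do not measure. In the adult brain, oligodendrocytes are rich in iron, ferritin and transferrin. Heme oxygenase 1, encoded by Hmox1, releases iron from haem.

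The libraries held between 11737554 and 44447006 reads on genes. Reads outside annotated genes made up 7.01% to 11.03% of all reads listed in CD mice and 8.18% to 10.5% in FD mice, and reads with more than 1 alignment made up 13.7% to 16.01% and 13.8% to 15.1%. The summed level of 8 neuronal markers lay between 7180 and 8148 CPM (counts scaled to library size) and that of 12 markers of hippocampal subfields between 1944 and 2125 CPM, and no marker of either list was at 0 in any mouse. Choroid plexus markers were low, with a sum of 39.0 to 95.5 CPM in CD mice and 33.1 to 48.1 CPM in FD mice over 11 genes, of which 2 were at 0 in at least 1 library. Of its defining genes, Otx2 had between 1 and 32 counts, Prlr between 48 and 201 and Ttr between 44 and 822. None of the 9 marker lists held a gene past the threshold in the diet contrast by edgeR or DESeq2. Of their 80 genes, 3 had an unadjusted edgeR p under 0.05, against 2.59% of all genes, and these were 2 choroid plexus markers and 1 meningeal marker. The choroid plexus gene Ttr had a log2 fold change of -1.19 (SE 0.47, unadjusted p = 0.021 and adjusted p = 1 by edgeR). In FD mice 8 of the 11 choroid plexus markers had a lower estimate. All 8 meningeal fibroblast markers (median log2 fold change 0.37) and all 5 red blood cell markers (median 0.16) had a higher one, against a median of -0.0040 over all genes. The part of these tissues in the diet values was not tested.

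Gm6977 (ENSMUSG00000084289) is a processed pseudogene on the minus strand of the X chromosome (chrX:90744546-90745062, GRCm38), where the annotation places no other gene. Its parent Fth1 (ENSMUSG00000024661) lies on the plus strand of chromosome 19 (chr19:9980598-9985098). The 512 bases of Gm6977 align to positions 225 to 752 of the 929-base Fth1-201 transcript with 37 substitutions, 4 deletions that remove 16 bases in all, and 0 insertions, which gives an identity of 92.8% over the 512 aligned pairs. The Fth1 reading frame holds 182 codons before its stop, and the first frame of Gm6977 holds 47. The longest deletion removes 9 bases.

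The reads were sequenced at 50 bases and only unique alignments had been counted, so the number of differences within 50 bases bears on which reads could be assigned to Gm6977. The paper states that reads were trimmed before alignment, so some may be shorter. How the aligner placed the reads of this pair was not examined. Of its 463 windows of 50 bases, 394 held at least 2 differences from Fth1, 11 held 1 and 58 held none (median 4, maximum 8). Among all annotated transcripts, 87.5% of the Gm6977 windows and 98.4% of the Fth1 windows occurred in no other gene. Ftl1 (ENSMUSG00000050708, chr7:45457944-45459884, minus strand) was less well placed, since 41.6% of its 1427 windows were found in no other annotated gene. The remaining members were well separated, with 95.7% for Slc11a2, 99.97% for Ireb2 and 100% for Tfrc, Slc40a1, Aco1 and Hmox1. Ftl1 also overlaps the miRNA annotation Gm22133 on its own strand and Gm10252 on the other, and Slc11a2 overlaps Gm5475 on the opposite strand. Whether strand was used in counting is not given in the sources used here, so reads of such pairs cannot be told apart.

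Iron-responsive elements were looked for in the untranslated ends of the annotated transcripts as a C, 5 bases, CAGTGN and 5 bases, with all 5 stem pairs formed (G with T allowed). They are shown because they carry the known control of these mRNAs by the iron regulatory proteins. The capitals mark the loop, which begins with CAGTG.
Fth1, 5′ end (chr19:9982738-9982754, plus strand): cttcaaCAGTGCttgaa
Ftl1, 5′ end (chr7:45459785-45459801, minus strand): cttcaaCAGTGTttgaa
Slc40a1, 5′ end (chr1:45925471-45925487, minus strand): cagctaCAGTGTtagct
Tfrc, 3′ end (chr16:32631225-32631241, plus strand): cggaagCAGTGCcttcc
Tfrc held 3 more matches further along the same 3′ end. No match was found in Slc11a2, Ireb2, Aco1 or Hmox1, which says only that these letters are not in the windows searched. Over the annotation, 0.151% of 20597 genes had a match in a 5′ untranslated end and 0.614% of 20995 genes had a match in a 3′ end.

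Fth1 was by far the most abundant of the 9 transcripts. Per kilobase of the first annotated transcript of each gene, its level was between 1120 and 1593 CPM per kb over the 11 mice (median 1259), 41.0 times the median of the next gene, and the ranges did not overlap. Tfrc followed with a median of 30.7 CPM per kb (27.2 to 35.0) and Ftl1 with 26.0 CPM per kb (23.5 to 32.1), and their ranges overlapped. Reads from Ftl1 windows that also lie in other genes could not be counted for Ftl1. Slc11a2 (median 16.7 CPM per kb), Ireb2 (16.7 CPM per kb) and Gm6977 (15.9 CPM per kb) had overlapping ranges, and the Gm6977 range also overlapped that of Aco1 (9.98 CPM per kb). Slc40a1 (4.08 CPM per kb) and Hmox1 (3.01 CPM per kb) were lowest, and the range of each lay below that of the gene above it. With the combined exons of each gene as its length, the first 3 places did not change, while Slc11a2 moved from place 4 to place 7 and Slc40a1 fell below Hmox1. Over the 11 mice the coefficient of variation was lowest for Slc11a2 (4.44%). Within the diet groups that of Gm6977 was 15.03% in CD and 11.04% in FD mice, and that of Hmox1 was 9.55% and 14.3%.

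Gm6977 was higher in every FD mouse than in every CD mouse, and its parent Fth1 was not. The CPM values below are scaled by the trimmed mean of M values (TMM). In CD mice Gm6977 stood at 6.73, 5.98 and 6.21 CPM in the 3 males and at 7.70, 5.55 and 8.12 CPM in the 3 females. In FD mice it stood at 8.997 and 10.2 CPM in the 2 males and at 11.1, 8.83 and 11.2 CPM in the 3 females. The lowest FD mouse (female_2) lay above the highest CD mouse (female_3), from which it follows that the ranges were apart within each sex. Behind these values were 65 to 275 reads in CD mice and 116 to 381 reads in FD mice. The means were 6.72 ± 1.01 CPM (SD, n = 6) in CD and 10.1 ± 1.11 CPM (SD, n = 5) in FD mice, a log2 fold change of 0.59 (SE 0.11), or 1.501-fold. In males alone the log2 fold change was 0.61 (SE 0.13) and in females alone 0.54 (SE 0.15).

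**Figure D1:**
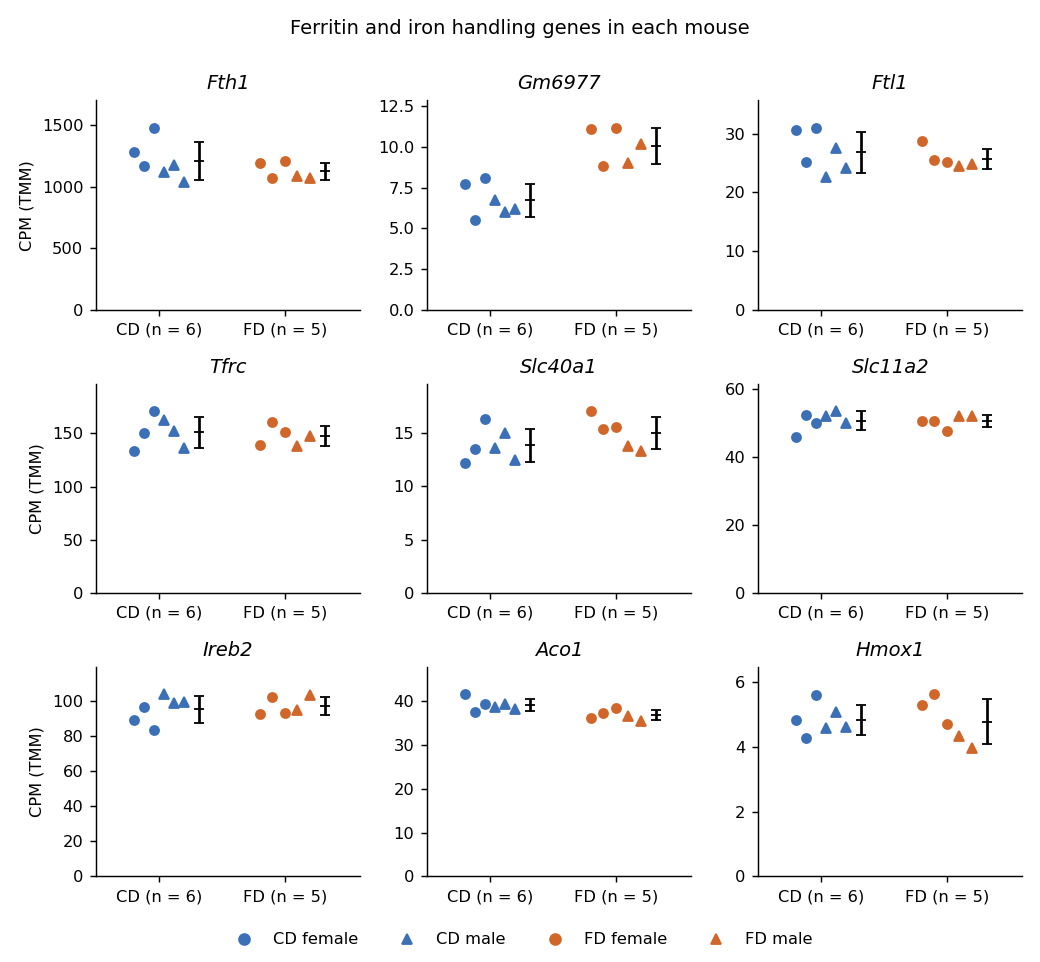
TMM-scaled CPM (vertical axes, from 0) of the 9 genes in each mouse, with CD mice in blue, FD mice in orange, females as circles and males as triangles; the black bars are the group mean ± SD. Gm6977 ran from 5.55 to 8.12 CPM in CD mice and from 8.83 to 11.2 CPM in FD mice, while the 2 groups overlapped for each of the other 8 genes.

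Across all genes tested, 0.505% had CD and FD ranges that did not overlap, and 0.0680% (14 of 20589) were past the adjusted p threshold of 0.1 in the diet contrast by edgeR. Among the 9 members only Gm6977 was of either kind, by the choice that made it a member. Of the 14 genes, 12 are annotated as pseudogenes, and the share of pseudogenes among all genes tested was not counted. Gm6977 was the most abundant of the 14 (mean 8.23 CPM, the next being Gm13341 with 3.35 CPM) and had the smallest log2 fold change among them, the largest being 3.16 for Gm4609. As a description of the contrast that chose it, Gm6977 was past the threshold with all mice and when CD female_1 or CD female_3 was left out. It was not in the 9 other fits that each left out 1 mouse, with log2 fold changes between 0.55 and 0.63, nor among genes with at least 10 counts in every mouse, with 0.59. These fits use the values that led to its choice and add no support to it.

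The share of Gm6977 in the reads of the pair does not depend on how libraries are scaled. Gm6977 made up 0.600%, 0.505% and 0.593% of the Fth1 and Gm6977 counts in the CD males and 0.598%, 0.472% and 0.546% in the CD females. In the FD males it made up 0.823% and 0.945%, and in the FD females 0.921%, 0.818% and 0.917%. The share restates the same Gm6977 counts over their parent, and its means were of 0.885% ± 0.0595 (SD, n = 5) in FD and 0.552% ± 0.0543 (SD, n = 6) in CD mice. Counting error was not small beside this gap. The 95% Wilson interval of FD female_2 was 0.683% to 0.980% and that of CD male_1 was 0.520% to 0.691%, and these intervals cover counting error only. Relative to Fth1 in the same mouse, the log2 difference of Gm6977 between diets was 0.69.

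**Figure D2:**
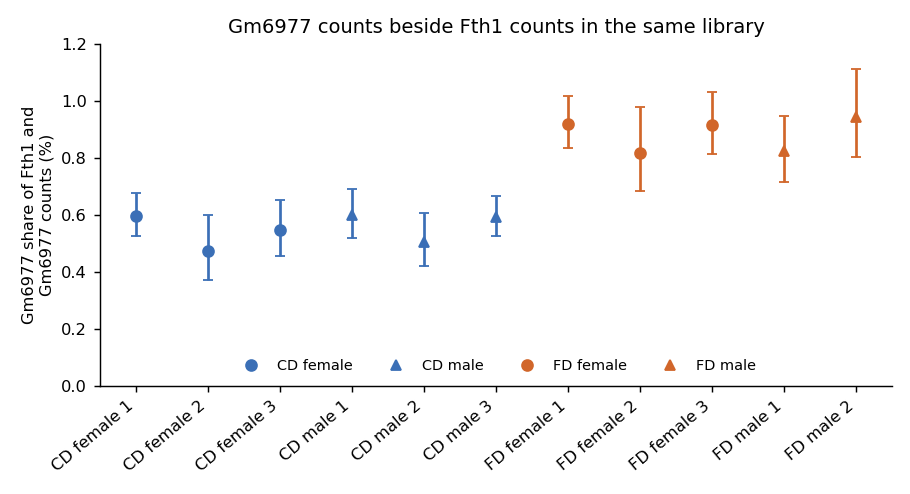
Gm6977 counts as a percentage of Fth1 and Gm6977 counts (vertical axis, from 0) in each of the 11 mice, with 95% Wilson intervals for counting error; CD mice are blue, FD mice orange, females circles and males triangles. The CD mice lie between 0.472% and 0.600% and the FD mice between 0.818% and 0.945%.

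The same share was compared between the sexes, a contrast that the rule for the members did not use. Females had a mean of 0.712% ± 0.198 (SD, n = 6) and males a mean of 0.693% ± 0.183 (SD, n = 5), and the 2 ranges overlapped. The difference of -0.0189 percentage points had a two-sided exact permutation p of 0.866 over the 462 assignments of 11 mice to groups of 6 and 5, the smallest p possible being 0.00216. Mice of both diets were pooled in this test, so the gap between the diets is part of the spread it measures. The SD of the share was 0.0543 within CD and 0.0595 within FD mice. A smaller difference between the sexes could thus be missed. Within CD mice the difference was 0.0273 (exact permutation p = 0.60) and within FD mice -0.00146 (exact permutation p = 1). The smallest two-sided p possible was 0.10 in either diet.

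No other ferritin copy listed in the deposited counts carried counts like those of Gm6977, and copies not listed there could not be judged. By sequence, 12 annotated genes matched the Fth1 transcript over at least 100 bases, and 9 of them are pseudogenes. Of these pseudogenes 6 were listed in the deposited counts, and 4 of the 6 were at 0 in all 11 mice. Fth-ps2 (chr6:39653450-39653965), named after its values were seen, is of similar length to Gm6977, and all 467 of its windows are its own. It had a mean of 1.09 counts per mouse, against 191.6 for Gm6977 and 27122 for Fth1. The mitochondrial ferritin gene Ftmt and the testis ferritin genes Fthl17b and Fthl17c also had 0 counts in all mice, which allows at most 3 counts in a library. Since 6.31% of the Fthl17b windows and 22.0% of the Fthl17c windows are found in no other gene, that bound covers only reads that could be placed uniquely.

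The Ftl1 transcript matched 45 annotated genes, 26 of them pseudogenes and 15 of them miRNA annotations, and 17 of the 45 shared at least 1 window of 50 bases with it. Of the 15 pseudogenes listed in the deposited counts, 6 were at 0 in all mice and 3 reached the filter of 10 counts. These were 4933416E14Rik with a mean of 8.18 counts per mouse, Gm7541 with 1.91 and Gm15580 with 1.64, against 613.8 for Ftl1 itself. The share of windows found in no other gene was as low as 12.3% in a listed pseudogene. Low counts on such copies cover only reads that could be placed uniquely. Gm15580 lies within the span of Cars, the cysteinyl-tRNA synthetase gene, on its opposite strand, and Cars (mean 852.5 counts) matched Ftl1 in the antisense direction. None of these 4 genes was past the threshold for diet or sex by edgeR. Their log2 fold changes for diet were -0.23 (SE 0.31) for 4933416E14Rik, 0.10 (SE 0.73) for Gm7541, 0.43 (SE 0.57) for Gm15580 and -0.02 (SE 0.05) for Cars.

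**Figure D3:**
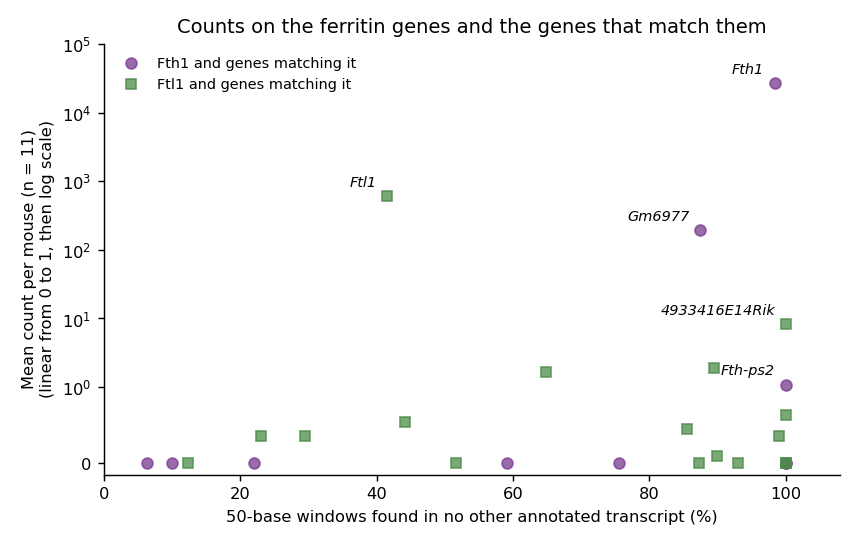
Mean count per mouse over 11 mice (vertical axis, linear from 0 to 1 and logarithmic above) against the percentage of 50-base windows found in no other annotated transcript (horizontal axis) for Fth1, Ftl1 and the genes that match them in the sense direction, without miRNA annotations. Gm6977, with a mean of 191.6 counts, stands alone between the parents and the remaining copies listed in the deposited counts. The highest of these copies is 4933416E14Rik with 8.18 counts.

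Neither of the ferritin chains themselves was past the threshold for diet. Fth1 was at 1116, 1179 and 1041 CPM in the CD males and at 1280, 1170 and 1480 CPM in the CD females. It was at 1084 and 1068 CPM in the FD males and at 1191, 1071 and 1208 CPM in the FD females. CD female_3 was highest, and the FD range lay inside the CD range. The log2 fold change was -0.11 (SE 0.08, edgeR adjusted p = 1), with an approximate 95% interval of -0.25 to 0.04, and -0.04 without CD female_3. Summing Fth1 with all its copies gave -0.10, since Gm6977 adds less than 1% of the reads. With sex as a covariate the Fth1 value was -0.12 (SE 0.06, edgeR adjusted p = 0.92). Ftl1 lay between 22.7 and 31.0 CPM in CD mice (median 26.3) and between 24.5 and 28.7 CPM in FD mice (median 25.2), and the groups overlapped. Its log2 fold change was -0.06 (SE 0.08, edgeR adjusted p = 1), with -0.0084 without CD female_1 and -0.012 without CD female_3.

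The genes of iron entry and export overlapped between the diets as well. Tfrc stood at 133.1 to 171.1 CPM in CD mice and 138.1 to 160.4 CPM in FD mice (log2 fold change -0.04, SE 0.07). Slc11a2 stood at 46.0 to 53.7 CPM and 47.8 to 52.3 CPM (log2 fold change -0.0021, SE 0.05). Slc40a1, whose protein is the known iron exporter of cells, had 12.1 to 16.2 CPM in CD mice and 13.3 to 17.03 CPM in FD mice, with 1 of 5 FD mice above all CD mice (log2 fold change 0.13, SE 0.09). The edgeR adjusted p was 1 for each of these 3 genes.

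The sensors and Hmox1 followed the same course. Ireb2 lay between 83.2 and 103.7 CPM in CD mice and between 92.2 and 103.0 CPM in FD mice (log2 fold change 0.03, SE 0.06). Aco1 encodes a protein that is both the cytosolic aconitase and an iron regulatory protein. It was at 38.7, 39.3 and 38.2 CPM in the CD males and 41.6, 37.6 and 39.3 CPM in the CD females, against 36.7 and 35.4 CPM in the FD males and 36.2, 37.3 and 38.5 CPM in the FD females. In 4 of 5 FD mice Aco1 was below every CD mouse, and FD female_3 was the exception. The share of all genes with such a split was not counted. The Aco1 log2 fold change of -0.09 (SE 0.05) had an unadjusted edgeR p of 0.095 and an adjusted p of 1. Hmox1 ran from 4.27 to 5.59 CPM in CD mice and from 3.96 to 5.64 CPM in FD mice (log2 fold change -0.01, SE 0.11, edgeR adjusted p = 1). Of the 8 members other than Gm6977, 0 were past the threshold by edgeR or DESeq2, and 0 had an unadjusted edgeR p under 0.05.

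**Figure D4:**
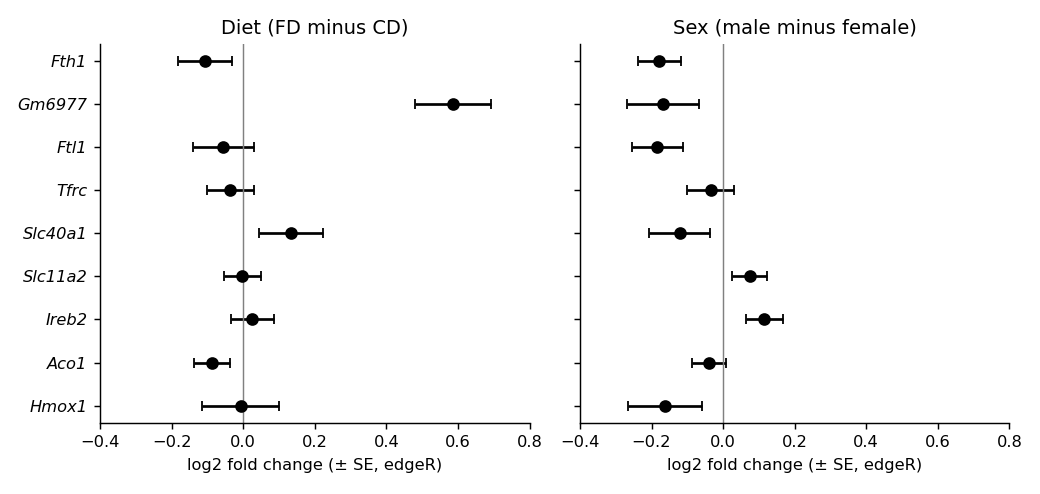
Log2 fold changes with standard errors (horizontal axes, edgeR) of the 9 genes for diet (FD minus CD, left) and for sex (male minus female with diet as a covariate, right). For diet Gm6977 stands at 0.59 and the other 8 genes between -0.11 and 0.13; for sex Fth1, Gm6977 and Ftl1 stand between -0.18 and -0.17.

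The wider iron system gave 0 genes past the threshold for diet. The 5 lists held 96 tested genes, and by edgeR and by DESeq2 none of them was called, none had an unadjusted edgeR p under 0.05, and 33 had a higher and 63 a lower estimate in FD mice. Their median log2 fold change was -0.03, against -0.0040 over all genes. In the uptake list (17 genes) the 2 genes with the smallest p were Cybrd1, a ferric reductase (log2 fold change 0.15, SE 0.09), and Slc39a8, a metal importer (0.21, SE 0.14). In the export and hepcidin list (18 genes) they were Cd163, the haemoglobin scavenger receptor (0.47, SE 0.28), and Cp, the ferroxidase ceruloplasmin (0.33, SE 0.25). The sensing and ferritin turnover list (16 genes) had Glrx3 (-0.10, SE 0.07) and Pcbp2, an iron chaperone (-0.06, SE 0.05). Alas1, which starts haem synthesis (-0.08, SE 0.05), and the transporter Abcg2 (0.14, SE 0.10) led the haem list (18 genes). The list of mitochondrial iron and iron-sulphur cluster genes (27 genes) had the cluster assembly factors Nubpl (0.17, SE 0.11) and Nubp1 (-0.11, SE 0.08), and 22 of its 27 genes had a lower estimate in FD mice (median -0.04). The edgeR adjusted p was 1 for each of these 10 genes.

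The sex contrast, with diet as a covariate, was not used by the rule for the members. Both ferritin chains had lower estimates in males. Fth1 ran from 1071 to 1480 CPM in females (median 1200, n = 6) and from 1041 to 1179 CPM in males (median 1084, n = 5), and 2 of 5 males lay below every female. Its log2 fold change was -0.18 (SE 0.06), with an edgeR adjusted p of 0.11. Ftl1 ran from 25.1 to 31.0 CPM in females and from 22.7 to 27.5 CPM in males, 4 of 5 males lay below every female, and the log2 fold change was -0.18 (SE 0.07, edgeR adjusted p = 0.15). Gm6977 had an estimate of the same size (-0.17, SE 0.10, edgeR adjusted p = 0.36). The share of all genes with 2 or 4 of 5 males below every female was not counted. Ireb2 was the member with the largest estimate in the other direction, with 83.2 to 102.0 CPM in females and 94.6 to 103.7 CPM in males (log2 fold change 0.12, SE 0.05, edgeR adjusted p = 0.23).

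For sex, edgeR placed 6.11% of all genes and 0 of the 9 members past the threshold. Of the members 3 had an unadjusted edgeR p under 0.05 (Fth1, Ftl1 and Ireb2), against 20.3% of all genes, and DESeq2 called 1, Fth1, against 9.92% of all genes. The remaining estimates were -0.03 (SE 0.06) for Tfrc, -0.12 (SE 0.08) for Slc40a1, 0.07 (SE 0.05) for Slc11a2, -0.04 (SE 0.05) for Aco1 and -0.16 (SE 0.10) for Hmox1. In the interaction of diet and sex 0% of all genes and 0 of the 9 members passed by edgeR or DESeq2, and 391 genes and 0 members had an unadjusted edgeR p under 0.05. The difference between the sexes in the Gm6977 log2 fold change for diet was 0.06 (SE 0.21).

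Other measures of the libraries moved with these sex values. All 10 oligodendrocyte markers (median log2 fold change -0.24) and all 5 red blood cell markers (median -0.32) had a lower estimate in males, and 6 of 8 meningeal markers had a higher one (median 0.25). These estimates were not alike in the 2 diets. The interaction estimate was positive for all 10 oligodendrocyte (median 0.24) and 6 of 8 meningeal markers (median 0.23). It was negative for all 5 red blood cell markers (median -0.56), and 0 markers of these lists passed the threshold. The summed level of the oligodendrocyte markers was 4177 to 6579 CPM in females and 4077 to 5105 CPM in males. Past the threshold for sex were 9 of the 80 markers (11.25%, against 6.11% of all genes), 3 higher and 6 lower in males. Of these, 3 were among the 9 microglia markers, namely C1qa, C1qb and C1qc. Their log2 fold changes were -0.27, -0.28 and -0.31, with an edgeR adjusted p of 0.079, 0.062 and 0.066. The astrocyte list held 2, 1 in each direction, and the neuronal, subfield, oligodendrocyte and meningeal lists held 1 each. Reads outside annotated genes made up 7.01% to 10.5% in females and 8.95% to 11.03% in males. With that percentage as a further covariate, an alternative added after the values were seen, 9 genes in place of 1257 passed for sex and the Fth1 log2 fold change was -0.15 (SE 0.07, edgeR adjusted p = 0.67). The part of cell composition or of library make-up in the ferritin values was not tested, and in whole tissue fewer cells of a type and less RNA per cell cannot be told apart.

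Fth1 followed the oligodendrocyte markers from mouse to mouse. No other marker list was correlated with Fth1, so the relation is not shown to be particular to this cell type. CD female_3, highest in Fth1 and in the oligodendrocyte sum, also had the highest choroid plexus sum (95.5 CPM). The same mouse had the lowest sums of astrocyte (4107 CPM), red blood cell (11.6 CPM) and meningeal (87.8 CPM) markers. Over the 11 mice the log2 level of Fth1 and the log2 of the summed markers had a Pearson r of 0.91 (permutation p = 0.00036, adjusted over 6 relations 0.0022) and a Spearman rho of 0.89 (permutation p = 0.00056, adjusted 0.0034). Without the 2 mice farthest from the median of the markers, r was 0.79 (n = 9). Within the 6 females r was 0.93 and within the 5 males 0.66. Fth1 and Ftl1 also went together, with r = 0.81 (permutation p = 0.0025, adjusted 0.0075) and rho = 0.77 (permutation p = 0.0079, adjusted 0.024), r = 0.72 without 2 mice, 0.77 within females and 0.57 within males. All these values come from the same libraries and share their scaling.

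Fth1 and Tfrc showed no such relation (r = 0.34, permutation p = 0.31, adjusted 0.31, rho = 0.21, permutation p = 0.54, adjusted 0.54), and r was -0.47 without 2 mice, so its sign rested on those mice, with 0.25 within females and 0.65 within males. The percentage of reads outside genes had r = -0.56 with Fth1 (permutation p = 0.094, adjusted 0.15, rho = -0.66, permutation p = 0.032, adjusted 0.064, r = -0.62 without 2 mice, -0.48 within females and 0.28 within males). With Ftl1 it had r = -0.45 (permutation p = 0.18, adjusted 0.21, rho = -0.34, permutation p = 0.31, adjusted 0.38, r = -0.35 without 2 mice, -0.56 within females and 0.92 within males). The negative sign of both relations was thus not found within males. Since Gm6977 fell into separate diet groups, it was set against Fth1 in the 6 CD mice alone, with r = 0.74 (exact permutation p = 0.10, adjusted 0.15) and rho = 0.54 (exact permutation p = 0.30, adjusted 0.38). Without 2 of these mice r was 0.55 (n = 4).

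**Figure D5:**
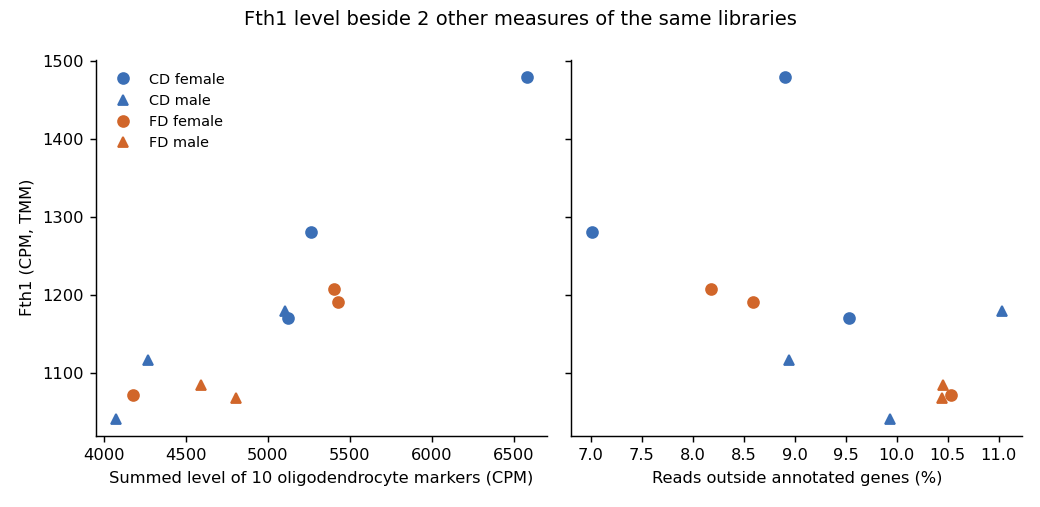
Fth1 level in TMM-scaled CPM (vertical axis, not from 0) of the 11 mice against the summed level of 10 oligodendrocyte markers in CPM (left) and the percentage of reads outside annotated genes (right); CD mice are blue, FD mice orange, females circles and males triangles. Fth1 is highest in CD female_3, at 1480 CPM, where the markers sum to 6579 CPM, and lowest in CD male_3, at 1041 CPM, where they sum to 4077 CPM.

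Among the 96 genes of the iron lists 8 were past the threshold for sex (8.33%, against 6.11% of all genes), 4 higher and 4 lower in males, 26 had an unadjusted edgeR p under 0.05 (20.3% of all genes did), and DESeq2 called 14 (9.92% of all genes). In the uptake list these were Trf, the gene of the iron carrier transferrin, and Snx3, a sorting nexin that recycles the transferrin receptor. Trf ran from 22.5 to 31.96 CPM in females (median 26.4) and from 19.5 to 23.7 CPM in males (median 21.6), with a log2 fold change of -0.34 (SE 0.08, edgeR adjusted p = 0.064). Snx3 ran from 120.4 to 137.4 CPM in females and from 111.1 to 116.4 CPM in males, without overlap (-0.15, SE 0.05, edgeR adjusted p = 0.088). As Snx3 was named for passing the threshold, its separate ranges follow in part from that choice. The share of all genes with separate ranges in the sexes was not counted.

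The mitochondrial list had Fdx1l, a ferredoxin of cluster assembly, with 24.4 to 29.9 CPM in females and 20.4 to 23.2 CPM in males (log2 fold change -0.31, SE 0.06, edgeR adjusted p = 0.054), and Abcb8, a mitochondrial transporter (-0.18, SE 0.06, edgeR adjusted p = 0.096). Higher in males were Flvcr1, a haem exporter, with 10.2 to 15.3 CPM in females and 15.5 to 17.3 CPM in males (0.34, SE 0.09, edgeR adjusted p = 0.072), and Bmpr2, a receptor of the hepcidin pathway (0.54, SE 0.16, edgeR adjusted p = 0.093). Smad4, a transducer of the same pathway (0.18, SE 0.06, edgeR adjusted p = 0.092), and Herc2, a ubiquitin ligase (0.26, SE 0.08, edgeR adjusted p = 0.084), were higher too. These calls depended on single mice. The count of 8 became 21 without CD female_2 and 19 without FD female_2, 3 without FD male_1, 1 without CD male_3 or FD female_1, and 0 without any of the other 6 mice. With reads outside genes as a covariate it was 0.

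The genes closest to Fth1 over the 11 mice, by Pearson r of log2 CPM among 11528 genes whose mean reached 5 CPM, were Fhl2 (r = 0.98), Zfp580 (r = 0.96) and Qdpr (r = 0.95). Those closest to Gm6977 were the processed pseudogene Gm12892 (r = 0.88), Ccdc34 (r = 0.86) and the processed pseudogene Gm5421 (r = 0.86). These are the highest of many values over few mice and are given as a description. The values for Gm6977 span both diets, so the difference on which it was chosen enters them.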

How the data were processed

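RNA of 11 hippocampi was sequenced as 50-base single-end reads. The authors deposited raw counts per gene for each mouse, made by STAR alignment to GRCm38 and counting of unique alignments with featureCounts per the labels and methods, although the summary lines have the form that HTSeq writes; the annotation release and strand setting are not given in the sources used here. Of the counted lines, 24.4% to 26.9% named no gene and were left out of library sizes and tests. Identifiers were matched to GENCODE M21 (95.1% of 38293 genes).

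Counts were scaled by TMM and tested with the quasi-likelihood test of edgeR 4.0.16 (R 4.3.3) on genes with at least 10 counts in total, with Benjamini-Hochberg adjustment over all 20589 genes and a threshold of 0.1. The diet contrast had no covariate and the sex contrast had diet. DESeq2 1.42.0 was an alternative. The fits were tested on simulated counts. Replicates of a group differed by 4.13 to 28.2 times the sampling noise per degree of freedom, so none was counted as a duplicate. Each library comes from 1 mouse, litters are not given, and p-values measure the spread between these mice. Wilson intervals cover counting error only.

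Ferritin copies were found with blastn 2.17.0 (word size 11, e-value of 1e-10 or less, at least 100 aligned bases) in GENCODE M21 transcripts, and 50-base windows were compared among annotated transcripts, since no genome sequence was used here. Named were the 9 members, the 5 ferritin copies with the highest mean count, in each iron list the genes past the threshold and the 2 with the smallest diet p, and the 3 genes most like Fth1 and Gm6977. Members and lists were chosen with earlier results of these data known. Alternatives were other scaling, tests, filters and covariates, each sex alone, each mouse left out, and a replicate block. A marker gene and a stretch of sequence are not reported here.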

Additional observations from a re-analysis of the deposited data

Results flagged for a closer look

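Ftl1 in FD female_1 stood at 28.7 CPM, apart from the other 4 FD mice, which lay between 24.5 and 25.4 CPM. Its gap to the nearest mouse was 0.774 of the group's range, above Dixon's critical value of 0.71 for 5 samples. Of 20 groups of values examined this way (each of the 9 genes and the Gm6977 share, in each diet) 1 was picked out, and chance picks out about 1 in 20.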

How the results depend on the processing

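Results under other processing are grouped by setting, and where a value moved the cause was not tested. For diet, 14 genes passed the threshold. The count was 18 with DESeq2, 8 with filterByExpr, 1 with at least 10 counts in every mouse, 2 in males alone, 1 in females alone, and 3 to 12 with single mice left out. Of the members, Gm6977 passed or none did, with 0 in males alone, in females alone and with at least 10 counts in every mouse, and 0 to 1 with single mice left out. The iron lists had 0 genes past the threshold for diet under every alternative run.

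Of 323 member log2 fold changes under other settings, those of Gm6977 for diet left out, 287 kept their sign and side of the threshold, 8 (all for sex) passed it newly and 28 changed sign. Among 21 settings for the diet value of Gm6977, the one relative to Fth1 in the same mouse gave 0.69. The others lay between 0.54 and 0.64. For diet, Slc11a2 became 0.0043 with RLE scaling, 0.0052 with DESeq2, 0.0019 with at least 1 count, 0.0052 with 10 counts in every mouse, 0.011 with filterByExpr, 0.0079 with sex as a covariate, 0.025 in males and 0.0090 in females. Hmox1 became 0.0025 with DESeq2, 0.00031 with 10 counts in every mouse, 0.0052 with filterByExpr and 0.080 in females. Ftl1 became 0.018 and Ireb2 -0.0090 in males. With single mice left out, the diet ranges that crossed 0 were -0.054 to 0.048 for Hmox1, -0.0089 to 0.055 for Ireb2, -0.030 to 0.022 for Slc11a2 and -0.071 to 0.0019 for Tfrc, and for sex -0.083 to 0.010 for Tfrc. Those of Fth1 and Ftl1 for diet ran from -0.15 to -0.041 and from -0.10 to -0.0084.

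The sex contrast was the least stable. Against 1257 genes it gave 2043 with DESeq2, 2645 with at least 1 count, 37 without diet as a covariate, 9 with reads outside genes as a covariate, and 18 (without CD male_1) to 3244 (without CD female_2) with single mice left out. Members past the threshold for sex numbered 1 with DESeq2 and with 10 counts in every mouse, 2 with at least 1 count, and 0 to 2 with single mice left out. Both counts of 2 with a mouse left out came without CD female_2 or FD female_2. Iron list genes for sex numbered 14 with DESeq2, 17 with at least 1 count, 13 with 10 counts in every mouse, 0 without the diet covariate or with reads outside genes, and 0 to 21 with single mice left out. The sex estimate of Gm6977 became 0.017 with reads outside genes as a covariate. The sex difference in the Gm6977 share became 0.027 in CD mice alone and ran from -0.082 to 0.028 with single mice left out.

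Mice with the same sex and number in the 2 diets form 5 pairs, with correlations of their deviations from -0.088 to 0.319 after the means of diet and sex were removed. Only 2 of the 5 were over 0.1, so the numbers were not taken as pairing the mice, and 3 of 10 mice went best with their own number. With the replicate block 23 genes passed for diet, Gm6977 had a log2 fold change of 0.55, and members and iron lists had 1 and 0 genes past the threshold. Depth limits Hmox1 and Gm6977, with as few as 50 and 65 reads in a mouse, and Ftl1 is limited by windows shared with other genes.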
